A study of Macaca mulatta with 8 samples.

Results

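The receptors for glutamate and GABA, the main excitatory and inhibitory transmitters of the cortex, were followed through the open chromatin of their genes in cultured rhesus macaque cortex cells. Members were the autosomal protein-coding genes of the NCBI Mmul_10 annotation with a glutamate receptor symbol (GRIA, GRIK, GRID, GRIN or GRM) or a GABA receptor symbol (GABR or GABBR). The rule found 43 genes among 19839 autosomal protein-coding genes: 25 glutamate receptor genes and 18 GABA receptor genes. It used gene names alone and no measured value. The 4 receptor genes on the X chromosome lay outside it.

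Chromatin was assayed by ATAC-seq, which marks open DNA by the insertions of Tn5 transposase, at 4 stages that the labels give as post-conceptional dates E50, E60, E80 and E85. Each stage had 1 culture, from which 2 technical libraries were taken. All cultures were started from frozen cortical pieces that had been dissociated with papain, and were grown in a medium with FGF2, EGF and BDNF that enriches progenitors. No genotype or treatment separated them. The series is titled for HAQERs, the fastest-evolved segments of the human genome, which were not analysed here.

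The measurement was the call of a region of the rheMac10 genome, into which the authors merged overlapping peaks of 1 or more sets. A region was called at a stage if it held at least 1 peak of that stage. The locus of a gene was its body and the 5 kb upstream of it, and a promoter region lay within 1000 bp of any annotated transcript start of the gene. The 4 sets differed in size, with 18819 (E50), 59928 (E60), 58122 (E80) and 28982 (E85) regions, and only E60 and E80 were nearly equal. A region without a call may have been open below the threshold of the peak caller, and differences that involve E50 or E85 cannot be told apart from set size. With 1 culture per stage there was no replicate check and no test, and exact Clopper-Pearson 95% intervals cover counting error alone.

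Ionotropic glutamate receptors are cation channels built from 4 subunits in the AMPA, kainate, NMDA and delta families, while metabotropic glutamate receptors act through G proteins. GABA-A receptors are chloride channels assembled from a large set of subunits, and GABA-B receptors are obligate pairs of GABBR1 and GABBR2 that act through G proteins. In the developing cortex GABA often depolarises young neurons before synapses mature, and both transmitters also act on progenitors and migrating cells. Which subunits a cell uses sets the kinetics, ion permeability and drug sensitivity of its receptors.

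Receptor loci were open mostly at E60 and E80. Of the 43 loci, 38 held at least 1 region and together held 262 distinct regions, out of 45542 at all autosomal protein-coding loci and 72358 in the series. The receptor loci had 38 regions in the E50 set, 219 in the E60 set, 196 in the E80 set and 80 in the E85 set. As shares of the 262 these were 14.5%, 83.6%, 74.8% and 30.5%, beside 30.4%, 84.8%, 82.2% and 44.4% of the regions at all autosomal protein-coding loci. Set against the size of each stage's set, receptor loci held 0.202% of the E50 regions, 0.365% of the E60 regions, 0.337% of the E80 regions and 0.276% of the E85 regions. The share was thus lowest in the smallest set and highest in the largest.

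The stage pattern of the regions differed from the background mainly in how few were shared by all stages. At receptor loci 33 regions were called at all 4 stages, or 12.6% (8.83 to 17.2), beside 28.1% at all loci and 20.0% at loci of genes of at least 100 kb. Another 87 were called at E60 and E80 alone, or 33.2% (27.5 to 39.3), beside 28.3% and 31.3%. Regions called at E80 alone numbered 34, or 13.0% (9.16 to 17.7), beside 11.6% and 14.0%. Those called at E60 alone numbered 59, or 22.5% (17.6 to 28.1), beside 14.8% and 18.2%. Against long genes, whose values come second in each pair, the class called at all 4 stages alone had a background outside the receptor interval. The remaining patterns were rare: 34 regions were called at E60, E80 and E85, and all others had 4 regions or fewer. None of the 262 was called at E50 alone. Of the 33 regions called at all 4 stages, 8 lay at a promoter of any gene, or 24.2%, beside 63.7% at all loci. Over regions of every pattern the promoter shares were 21.4% and 33.6%. The part of promoters in the lower share called at all 4 stages was not tested.

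**Figure D1:**
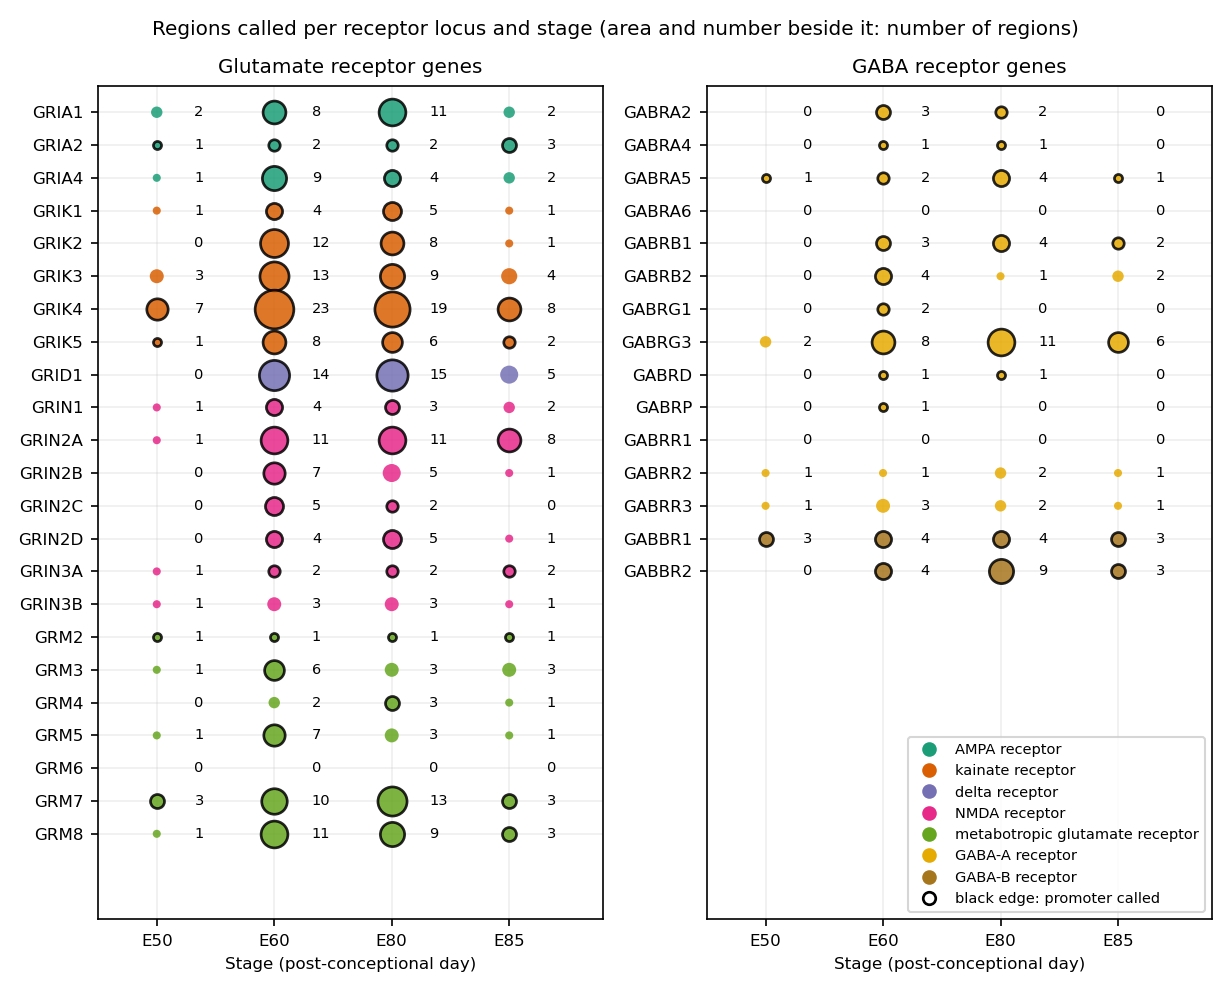
Regions called at each receptor locus described here (rows) at each stage (columns), coloured by receptor class. Circle area and the number beside it give the number of regions, and a black edge marks a stage at which a promoter of the gene was called. Most circles and most black edges lie at E60 and E80, and GRIK4 has the highest count at each of the 4 stages except E85, where GRIN2A also has 8.

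The genes were long, with a median of 153.84 kb against 21.52 kb for all autosomal protein-coding genes, and counts scale with length. The median receptor locus held 5 regions, against 1 over all loci and 5 over the 3018 genes of at least 100 kb. Per 100 kb of locus the median was 2.02 regions, against 4.22 over all loci and 2.49 over genes of at least 100 kb. Receptor loci therefore had fewer regions per length than the median gene, and close to the number of other long genes. No region was found at 5 of the 43 loci, or 11.6%, beside 21.3% of all autosomal protein-coding loci and 2.85% of those of at least 100 kb. The 5 genes were all shorter than 100 kb. Among these 5 were GRM6, best known from retinal bipolar cells, GABRA6, from cerebellar granule cells, and GABRR1, from the retina.

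Receptor promoters were called most often at E60 and least often at E50. At E50 a promoter region was called for 7 receptor genes (16.3%), at E60 for 34 (79.1%), at E80 for 29 (67.4%) and at E85 for 14 (32.6%). Over all autosomal protein-coding genes the shares in stage order were 45.9%, 66.0%, 64.6% and 54.5%. The receptor share was below that of all genes at E50 and E85, where the background lay above the intervals (6.81 to 30.7 and 19.1 to 48.5), and the shares of all genes lay inside the intervals at E60 (64.0 to 90.0) and E80 (51.5 to 80.9). Among genes of at least 100 kb, 3, 23, 20 and 10 of 24 receptor genes had a promoter called from E50 to E85, or 12.5%, 95.8%, 83.3% and 41.7%, beside 54.1%, 86.2%, 83.8% and 67.5% of all such genes. There too the background lay inside the receptor intervals at E60 (78.9 to 99.9) and E80 (62.6 to 95.3) and above them at E50 (2.66 to 32.4) and E85 (22.1 to 63.4). Only 7 had a promoter called at all 4 stages, 16.3% (6.81 to 30.7) beside 44.3% of all genes. Among genes of at least 100 kb the values were 3 of 24 receptor genes, or 12.5% (2.66 to 32.4), and 52.8% of all such genes.

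A promoter called at E60 and E80 and at neither E50 nor E85 was the most common pattern, with 14 genes or 32.6% (19.1 to 48.5), beside 9.98% of all genes and 16.4% of genes of at least 100 kb. Among them were the glutamate receptor genes GRIA1, GRIA4, GRIK1, GRIK2, GRIK3, GRID1, GRIN1, GRIN2C and GRIN2D and the GABA-A receptor genes GABRA2, GABRA4 and GABRD. Another 7 had calls at E60, E80 and E85 and not at E50, among them GRIN2A, GRIN3A, GRM8, GABRB1, GABRG3 and GABBR2. A promoter called at E80 alone was found for GRM4, 1 gene of 43 beside 0.731% of all genes. A promoter called at E60 alone was found for 6 genes, GRIN2B, GRM3, GRM5, GABRB2, GABRG1 and GABRP, or 14.0% (5.30 to 27.9), beside 2.38% of all genes and 2.95% of genes of at least 100 kb. Set E80 against E60, the promoter of 1 gene was called at E80 and not at E60 (background 1.13%) and those of 6 genes at E60 and not at E80 (background 2.59%).

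**Figure D2:**
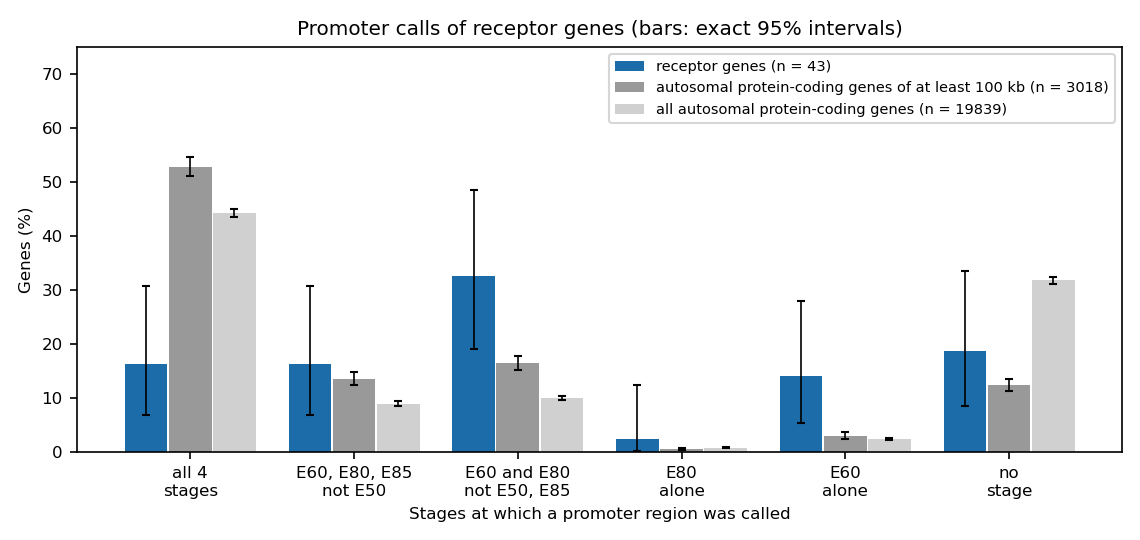
Share of genes (vertical axis, percent) whose promoter was called at the stages named on the horizontal axis, for the 43 receptor genes, for autosomal protein-coding genes of at least 100 kb and for all autosomal protein-coding genes, with exact 95% intervals. Receptor genes stand below both backgrounds for calls at all 4 stages (16.3%) and above both for calls at E60 and E80 alone (32.6%) and at E60 alone (14.0%).

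Promoter calls of cell type markers were counted beside these calls. All 8 radial glia markers had a promoter called at each of the 4 stages. Of 5 pan-neuronal markers, 2 had a promoter called at E50, 5 at E60, 5 at E80 and again 2 at E85. Of 6 excitatory neuron markers the numbers were 1, 3, 3 and 1 in the same order, and of 6 interneuron markers 2, 5, 5 and 2. Of 3 intermediate progenitor markers they were 1, 3, 3 and 2, and of 4 endothelium markers 0, 3, 2 and 0. Astrocyte markers had 2 of 3 called at every stage, oligodendrocyte lineage markers 2, 3, 3 and 3 of 4, and mural and mesenchyme markers 1, 2, 2 and 2 of 4. No promoter of the 4 microglia markers was called at any stage. Neuronal, intermediate progenitor and endothelium markers thus had their most promoter calls at the 2 middle stages, as the receptor genes and all genes did; their part in the receptor counts was not tested. In bulk cultures, fewer cells of a type and less open chromatin per cell cannot be told apart.

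Receptor genes also differed in the base composition of their promoters. The window from 250 bases before to 50 after the outermost start had a median ratio of observed to expected CpG of 0.250 in the 8 genes with no promoter call, 0.618 in the 28 with calls at 1 to 3 stages, and 0.779 in the 7 with calls at all 4 stages. Over all autosomal protein-coding genes the medians were 0.267, 0.725 and 0.809. The order was the same in both sets. The ranges of the receptor groups overlapped, from 0.0701 to 0.845 with no call, from 0.162 to 1.07 with calls at 1 to 3 stages and from 0.410 to 1.00 with calls at all 4.

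E80 and E60 can be compared most directly, since their sets were nearly equal in size. At receptor loci 40 regions were called at E80 and not at E60, and 63 at E60 and not at E80. E80 thus held 38.8% of these discordant regions (29.4 to 48.9), beside 45.6% at all autosomal protein-coding loci, a value inside the interval. Away from promoters the receptor share was 44.7%. At glutamate receptor loci the counts were 27 against 52, or 34.2% (23.9 to 45.7), and at GABA receptor loci 13 against 11, or 54.2% (32.8 to 74.4). These intervals overlapped, and the difference between the groups was not tested.

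More E80-specific than E60-specific regions were found at 11 of the 38 loci, or 28.9% (15.4 to 45.9), beside 17.5% of all loci with a region and 29.7% of those of at least 100 kb. More E60-specific regions were found at 18, or 47.4% (31.0 to 64.2), beside 20.1% and 36.7%, and equal numbers at 9. Both values for long loci lay inside the receptor intervals. An excess of at least 3 E80-specific regions was found at 4 loci, GABBR2 (5 against 0), GRIA1, GRM7 and GABRG3 (3 against 0 each), or 10.5%. The background was 1.52% of all loci and 6.24% of loci of at least 100 kb. An excess of at least 3 E60-specific regions was found at 8 loci, or 21.1%, beside 2.63% and 10.7%. The 8 were GRIA4 (0 E80-specific against 5 E60-specific), GRIK2, GRIK3 and GRM5 (1 against 5 each), GRIK4 (3 against 7), and GRM3, GRIN2C and GABRB2 (0 against 3 each). Long loci have more regions and so more room for such an excess. No interval was computed for these shares of loci, and their difference from the background was not tested.

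**Figure D3:**
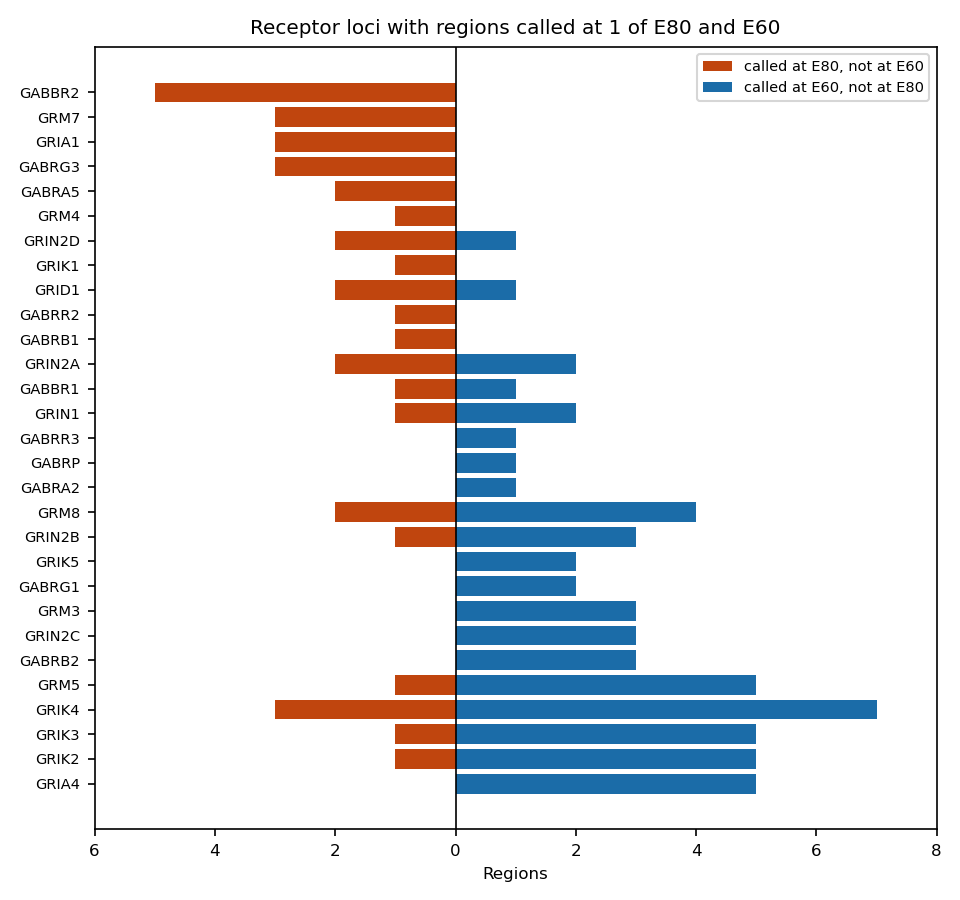
Number of regions called at E80 and not at E60 (left, red) and at E60 and not at E80 (right, blue) for each receptor locus described here with at least 1 such region. GABBR2, with 5 against 0, lies at the top and GRIA4, with 0 against 5, at the bottom.

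At receptor loci 41 regions were late-only, with a peak of E80 or E85 but none of E50 and E60, and 59 were early-only, the reverse. The late share was 41.0% (31.3 to 51.3), beside 47.5% at all loci. Between the stages of unequal set size, 183 regions were in the E60 set and not in the E50 set, and 2 the other way (98.9% at E60, beside 97.4%). For E85 against E80 the counts were 7 and 123 (5.38% at E85, beside 6.07%). Both shares were within 2 percentage points of the background.

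The AMPA receptor genes, which carry most fast excitation, had 23 regions, with 4, 19, 17 and 7 called at E50, E60, E80 and E85. GRIA2, whose subunit limits calcium entry, had a promoter region called at all 4 stages and 3 regions in all. The promoters of GRIA1 and GRIA4 were called at E60 and E80 alone. GRIA1 (chr6:150882479-151205169, rheMac10, plus strand) had 2, 8, 11 and 2 regions called at E50, E60, E80 and E85. Every one of its 11 regions was called at E80, and 3 intronic regions at E80 alone lay 31.52, 72.56 and 225.36 kb from its outermost start. GRIA4 (chr14:98876001-99249348, plus strand) was the opposite case, with 1, 9, 4 and 2 regions. All 9 of its regions were called at E60, and 5 intronic regions at E60 alone lay between 162.62 and 326.06 kb from the start.

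The sequences around the motif matches of these stage-restricted regions are shown because both genes encode subunits of the same receptor and their introns differed in opposite directions. Bases are from the Mmul_10 genome on the gene's strand, and each stretch of 81 bases is centred on its match. Capitals mark an AP-1 match (TGACTCA or TGAGTCA, bound by FOS and JUN dimers) in 2 of the E80-alone regions of GRIA1.
GRIA1, chr6:150913885-150913965: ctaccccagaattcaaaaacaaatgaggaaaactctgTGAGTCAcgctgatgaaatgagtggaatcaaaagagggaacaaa
GRIA1, chr6:150955049-150955129: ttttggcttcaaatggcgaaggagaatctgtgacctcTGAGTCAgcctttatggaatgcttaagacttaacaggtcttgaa
In the E60-alone regions of GRIA4, 3 of 5 held an E-box (CAGCTG, bound by neurogenic basic helix-loop-helix factors) or a homeobox match (TAATTA) and none held AP-1; capitals mark these matches. Over all E60-alone regions the E-box was in 23.7% at receptor loci and 31.2% at all loci, and the homeobox in 10.2% and 13.2%, so such matches are common in this class.
GRIA4, chr14:99038612-99038692: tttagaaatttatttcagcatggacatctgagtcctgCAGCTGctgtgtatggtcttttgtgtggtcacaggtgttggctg
GRIA4, chr14:99148374-99148454: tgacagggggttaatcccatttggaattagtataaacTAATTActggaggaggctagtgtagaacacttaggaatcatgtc
GRIA4, chr14:99166428-99166508: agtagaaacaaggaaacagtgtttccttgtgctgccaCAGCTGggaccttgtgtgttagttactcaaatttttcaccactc

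**Figure D4:**
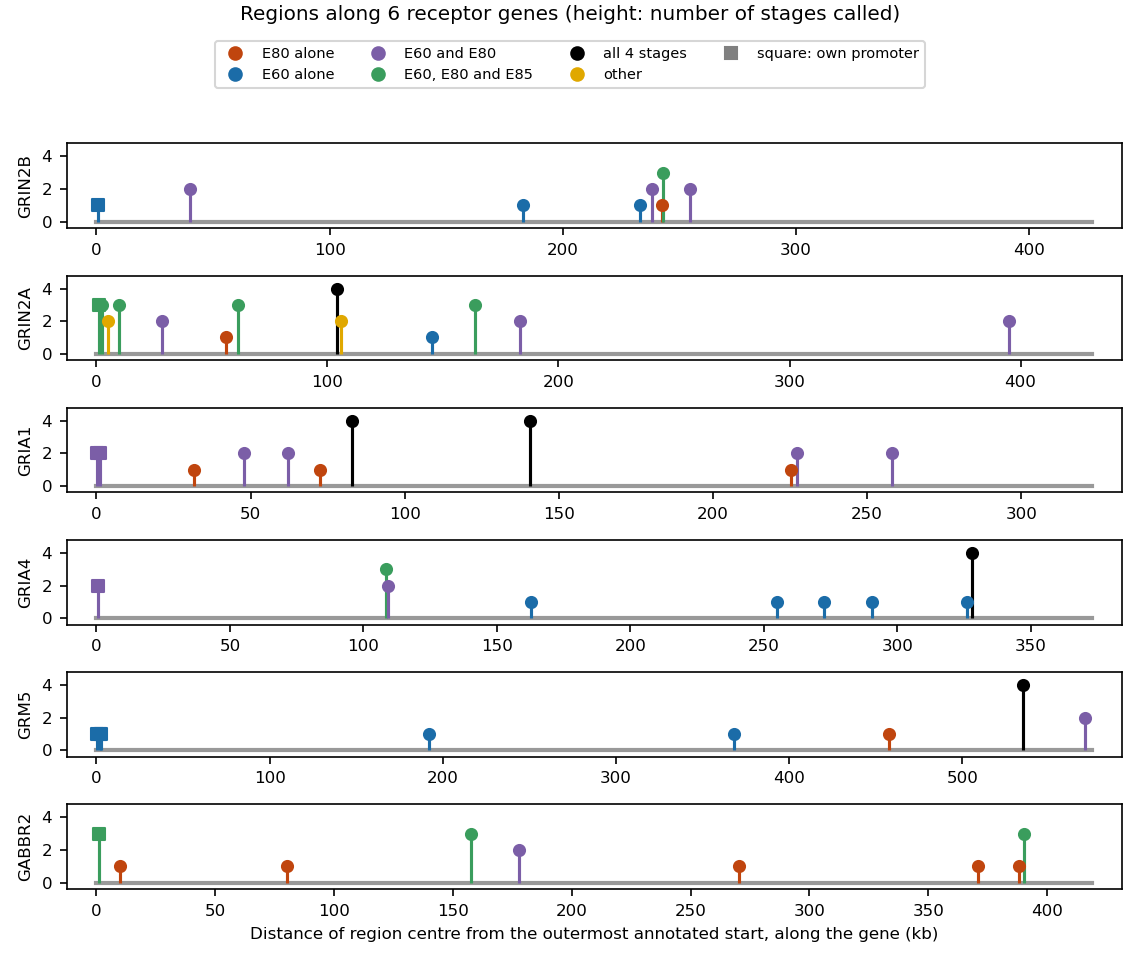
Regions along 6 receptor genes, by the distance of the region centre from the outermost annotated start along the gene (horizontal axis, kb). Height gives the number of stages at which the region was called, colour the stages and a square a promoter of the gene. E80-alone regions (red) are spread through the introns of GRIA1 and GABBR2, and E60-alone regions (blue) lie in the distal introns of GRIA4 and both at the starts and in the introns of GRIN2B and GRM5.

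The kainate receptor genes had 67 regions, the most of any class, with 12, 60, 47 and 16 called at E50, E60, E80 and E85. Of these, 6 were E80-specific and 19 E60-specific, or 24.0% at E80 (9.36 to 45.1). The share was 45.6% at all loci, outside this interval, and 44.7% at loci of genes of at least 100 kb, inside it. GRIK4 (chr14:113578373-114060082), whose subunit forms channels only with other kainate subunits, had 27 regions, the most of the 43 genes, with 7, 23, 19 and 8 by stage. Of its regions 6 were called at all 4 stages, among them its promoter, and 7 at E60 alone, all intronic. GRIK5, the related subunit gene, had 8 regions and a promoter called at all 4 stages, but 5 of its promoter regions also lay within 1000 bp of a start of ZNF574. GRIK3 had 14 regions (3, 13, 9 and 4 by stage) and GRIK2 had 13 (0, 12, 8 and 1). In GRIK2 a promoter region 5.64 kb inside the outermost start was called at E60 alone, and 2 of the E60-alone regions were exonic. GRIK1 had 5 regions with 1, 4, 5 and 1 by stage.

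Of the delta receptor genes, whose products bind cerebellins at synapses, GRID1 had 16 regions, or 2.02 per 100 kb, with 0, 14, 15 and 5 by stage. Of these, 2 were E80-specific and 1 was E60-specific.

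The NMDA receptor genes had 42 regions, with 4, 36, 31 and 15 by stage. GRIN1, the subunit that every NMDA receptor contains, had 5 regions, and its start was called at E60 in 1 region and at E60 and E80 in the next. The 2 glutamate-binding subunits that dominate the forebrain differed at their starts. GRIN2B, known from rodents as the main subunit before birth, had a single promoter region of 2089 bp at chr11:15368720-15370808 that was called at E60 alone. GRIN2A, known from rodents to increase after birth, had a promoter region of 1778 bp at chr20:10193977-10195754 that was called at E60, E80 and E85. Over the whole loci GRIN2A had 1, 11, 11 and 8 regions by stage and GRIN2B had 0, 7, 5 and 1. At E85, GRIN2A and GRIK4 had the most regions of the receptor genes, with 8 each, and GRIN2B had 1, in an intron. The difference between the 2 genes was not tested.

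For these 2 promoter regions, the 151 bases nearest the region centre that hold no annotated exon of the gene are printed, on the gene's minus strand. Both stretches are intronic in the annotation, and no motif is marked in them.
GRIN2B, chr11:15369665-15369815, called at E60: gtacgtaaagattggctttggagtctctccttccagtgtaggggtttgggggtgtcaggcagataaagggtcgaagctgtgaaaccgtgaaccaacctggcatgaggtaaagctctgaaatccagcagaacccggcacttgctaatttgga
GRIN2A, chr20:10194819-10194969, called at E60, E80 and E85: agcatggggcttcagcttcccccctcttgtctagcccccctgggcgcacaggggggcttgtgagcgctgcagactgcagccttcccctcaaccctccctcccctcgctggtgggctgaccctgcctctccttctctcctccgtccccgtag
The GRIN2B stretch had 50.3% GC and 4 CpG dinucleotides, against 67.5% and 5 in GRIN2A.

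Among the other NMDA genes, GRIN2C and GRIN2D had promoters called at E60 and E80 alone. GRIN2C had 5 regions, all called at E60 and 2 of them at E80, with none at E50 or E85. GRIN2D had 6 regions with 0, 4, 5 and 1 by stage, 1 of which was the promoter of the neighbouring gene KDELR1. GRIN3A and GRIN3B, whose subunits bind glycine, had 2 and 3 regions, and GRIN3B had no promoter call.

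The RE1 element, bound by the repressor REST that silences neuronal genes in other tissues, was searched as its left part TCAGCACC and right part GGACAGCG within 30 bp of each other. Both parts were found near the centre of 1 of the 262 receptor regions, that of GRIN1, and of 41 of 45542 regions at all loci (0.0900%). Over whole regions 2 receptor regions held them (0.763%, 0.0926 to 2.73), beside 0.136% at all loci. The 2 were the GRIN1 region at chr15:1068444-1068852, called at E60 and E80, and the GRIA2 promoter region at chr5:154862615-154863432, called at all 4 stages. In GRIN1 the match lies in an untranslated part of an exon, and in GRIA2 it lies in an intron and reads on the opposite strand. Each is shown with 6 bases either side and its 2 parts in capitals.
GRIN1, chr15:1068700-1068729, minus strand: cccgctTCAGCACCgtGGACAGCGccggtc
GRIA2, chr5:154862859-154862888, plus strand: gcgacgCGCTGTCCtcGGTGCTGAaaggca

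Of the metabotropic glutamate receptor genes, 7 of 8 had regions, 49 in all, with 9, 41, 36 and 15 by stage. Within group I, which raises intracellular calcium, GRM5 had 8 regions with 1, 7, 3 and 1 by stage, and its 3 promoter regions were called at E60 alone. Of these, 2 also lay near the start of LOC114672332. Within group II, which lowers cyclic AMP, GRM2 had 1 region, its promoter, called at all 4 stages. GRM3, the other member, had 6 regions with 1, 6, 3 and 3 by stage, and its promoter region of 1494 bp was called at E60 alone. Within group III, GRM7 had 13 regions with 3, 10, 13 and 3 by stage, and all 13 were called at E80. GRM8 also had 13, with 1, 11, 9 and 3. GRM4 had 3 regions, and its promoter region of 541 bp was the only receptor promoter called at E80 alone.

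GABA-A receptor genes had 39 regions at 12 of 16 loci, with 5, 32, 29 and 13 by stage. GABRG1, GABRA2, GABRA4 and GABRB1 lie in a cluster on chromosome 5 that spanned 1440 kb and had 10 regions, or 0.694 per 100 kb, with 0, 9, 6 and 2 by stage. GABRB2, on chromosome 6, had 4 regions with 0, 4, 1 and 2 by stage.

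GABRG3 had 11 regions with 2, 8, 11 and 6 by stage, and 3 of them were called at E80 or E85 and not at E60. GABRA5, whose receptors sit mostly outside synapses, had 1, 2, 4 and 1, and 1 of its promoters was called at all 4 stages. In the chromosome 5 cluster, GABRA4 and GABRB1 start head to head and shared 1 promoter region of 394 bp, called at E60 and E80. A second promoter of GABRB1, 38.42 kb from the outermost start of the gene, was also called at E85. GABRG1 had 2 regions, both at its start and both called at E60 alone, and GABRA2 had 3 with a promoter called at E60 and E80.

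GABRD and GABRP had 1 promoter region each, called at E60 and E80 for GABRD and at E60 alone for GABRP. GABRR2 and GABRR3, known mainly from the retina, had 2 and 3 regions and no promoter call. The GABA-B pair differed. GABBR1, which binds GABA, had 5 regions with 3, 4, 4 and 3 by stage and a promoter called at all 4 stages. GABBR2, which couples the pair to its G protein, had 9 regions with 0, 4, 9 and 3 by stage. Its promoter region of 2870 bp, the widest at a receptor locus, was called at E60, E80 and E85. Every region of GABBR2 was called at E80, and 5 intronic ones, 10.01, 80.24, 270.21, 370.86 and 388.29 kb from its start, were called at E80 alone.

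Of these 5 GABBR2 regions 3 held an AP-1 match, shown here in capitals on the plus strand for comparison with GRIA1.
GABBR2, chr15:44218072-44218152: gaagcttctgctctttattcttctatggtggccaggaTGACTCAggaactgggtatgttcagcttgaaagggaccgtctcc
GABBR2, chr15:44578911-44578991: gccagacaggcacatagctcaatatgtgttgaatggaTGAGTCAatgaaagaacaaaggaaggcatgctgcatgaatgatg
GABBR2, chr15:44596427-44596507: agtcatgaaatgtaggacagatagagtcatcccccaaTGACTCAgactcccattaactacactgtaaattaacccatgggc

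AP-1 matches followed the stage of the call at receptor loci as they did elsewhere. Within 150 bp of the region centre, AP-1 was found in 18 of 34 E80-alone regions, or 52.9% (35.1 to 70.2), and in 6 of 59 E60-alone regions, or 10.2% (3.82 to 20.8). At all autosomal protein-coding loci the shares were 40.6% and 10.4%, and each lay inside the receptor interval. The 18 regions lay at 11 loci, with 3 each at GRIA1 and GABBR2. Of receptor regions called at all 4 stages, 7 of 33 held AP-1, or 21.2% (8.98 to 38.9), beside 8.55% at all loci. In that class 24.2% of receptor regions lay at a promoter, beside 63.7% at all loci, and the part of this difference in the AP-1 share was not tested.

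**Figure D5:**
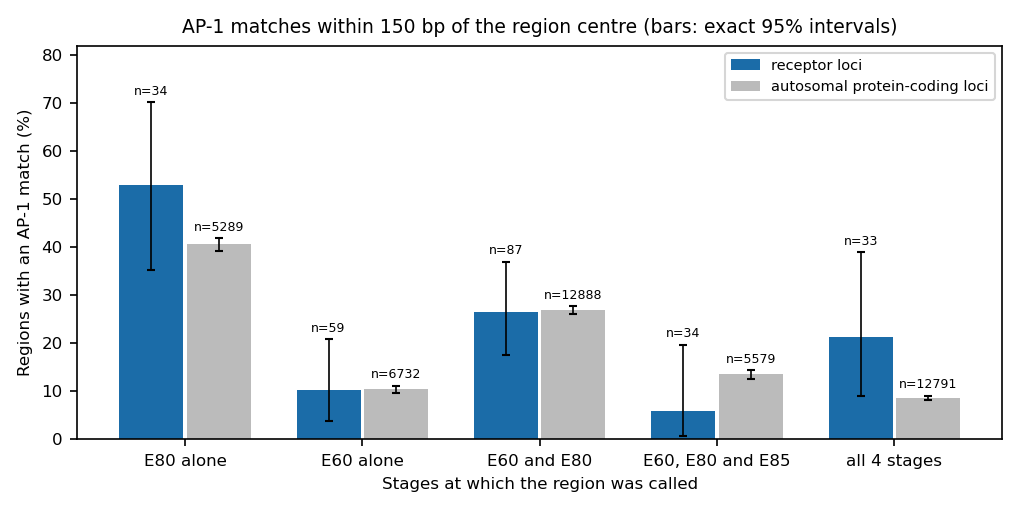
Share of regions with an AP-1 match within 150 bp of the centre (vertical axis, percent), by the stages at which the region was called, for receptor loci and for all autosomal protein-coding loci, with exact 95% intervals and the number of regions above each bar. In both sets the share is highest in E80-alone regions, 52.9% at receptor loci and 40.6% at all loci.

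Over all 262 regions AP-1 was found in 21.8% (16.9 to 27.2), beside 18.4% at all loci, and an E-box in 18.7% (14.2 to 24.0) beside 23.9%, both backgrounds inside the interval. A homeobox match was found in 11.5% (7.86 to 15.9) beside 7.04%, and a GC box (GGGCGG) in 21.0% (16.2 to 26.4) beside 31.4%, both backgrounds outside it. These readings depended on the background. Over all autosomal regions with a stage peak, the homeobox share was 8.35% and the GC box share 25.6%, both inside the receptor intervals. The E-box share there was 24.4%, outside its interval, and the AP-1 share 21.2%, inside. TEAD (ACATTCC) was found in 6.11% beside 4.91%, SOX (ACAATGG) in 2.67% beside 4.11%, RFX (GTTGCCATG) in 1.91% beside 1.05%, NRF1 (GCGCATGC or GCATGCGC) in 0.763% beside 1.21% and CRE (TGACGTCA) in 0.382% beside 0.823%. Receptor regions lay at a promoter of any gene in 21.4% of cases (16.6 to 26.8), beside 33.6% at all loci, and had a median width of 435.5 bp beside 530 bp. By annotation 55 of the 262 lay at the gene's own promoter, 183 in introns, 16 in exons, 7 upstream and 1 at another gene's promoter. Regions called at E60 alone lay at a promoter in 27.1% of cases (16.4 to 40.3), beside 15.8% at all loci, and those called at E80 alone in 2.94% (0.0744 to 15.3), beside 8.04%. The 16 E60-alone promoter regions came from 11 genes, and the interval counts each region as independent.

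Promoter calls were also counted for partners of the receptors. Of 29 genes for glutamate receptor auxiliary subunits, scaffolds, transporters and transmitter metabolism, all had a region, and the genes with a promoter call numbered 10, 24, 22 and 13 from E50 to E85. These are 34.5%, 82.8%, 75.9% and 44.8%, beside 45.9%, 66.0%, 64.6% and 54.5% of all autosomal protein-coding genes, which had the same order of stages. The promoters of CNIH2, an AMPA receptor auxiliary subunit, and SLC17A8, a vesicular glutamate transporter, were called at E60 alone. They were 2 genes of 29, beside 2.38% of all genes. Calls at E60 and E80 alone were found for 9 of the 29 genes, beside 9.98% of all genes. Among the 9 were CACNG2, CACNG3 and CACNG4, which encode AMPA receptor auxiliary subunits, and the transporter genes SLC1A1, SLC1A2 and SLC1A6. GRIP2, HOMER3 and GLUL, which encode 2 scaffolds and glutamine synthetase, had calls at E60, E80 and E85. E80 held 25 regions that E60 lacked and E60 held 26 that E80 lacked, or 49.0% at E80 (34.8 to 63.4), beside 45.6% at all autosomal protein-coding loci. SHISA9, an AMPA receptor auxiliary subunit, had 7 against 0, while GRIP2 had 0 against 6, and NETO1, a kainate receptor auxiliary subunit, and SLC17A8 had 0 against 3 each.

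Of 17 genes for GABA receptor partners, GABA synthesis, transport and chloride balance, those with a promoter call numbered 7, 14, 13 and 7 from E50 to E85. These were 41.2%, 82.4%, 76.5% and 41.2%, beside 45.9%, 66.0%, 64.6% and 54.5% of all autosomal protein-coding genes. At the loci of this list, 3 regions were called at E80 and not at E60, and 22 at E60 and not at E80. E80 thus held 12% (2.55 to 31.2), beside the same 45.6%. GAD1 and GAD2, which make GABA, had 0 against 5 and 0 against 3, and the GABA transporter gene SLC6A11 had 0 against 3. The promoter of SLC32A1, the vesicular GABA transporter, was called at E60 alone, 1 gene of 17 beside 2.38% of all genes. Calls at E60 and E80 alone were found for 6 of the 17 genes, beside 9.98% of all genes. Among them were SLC12A5, the neuronal chloride exporter, and KCTD12, a GABA-B auxiliary subunit, as well as GAD1, GAD2 and SLC6A11. GAD1 and GAD2 are also interneuron markers, and that marker list had 1 E80-specific and 12 E60-specific regions; its part in the counts for this list was not tested.

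On the X chromosome, GRIA3 had 5 regions with 0, 5, 4 and 0 by stage and GABRQ had 2 with 1, 2, 2 and 1, and both had promoters called at E60 and E80. GABRA3 and GABRE had none.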

How the data were processed

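Omni-ATAC libraries of 4 cultures, 2 technical libraries each, were trimmed and aligned to rheMac10, with cutadapt 4.4, Bowtie2 2.5.1 and SAMtools 1.15 named in the submitters' processing notes. How and at which threshold peaks were called, whether libraries were pooled and whether Tn5 cuts were shifted is not given in the sources used here. In a file without a header, the authors deposited 112696 merged regions, each with its position, width in bp and peak names whose codes match the 4 stages in the labels. The 72358 regions with a stage peak were used. Another 40338 hold lifted peaks alone, from 4 sets undefined in the labels. The 8 columns of values carry no names and were not used, so depth per library was not used either.

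Regions were overlapped with the NCBI Mmul_10 annotation, and coordinates are 1-based. Motif letters were sought on both strands within 150 bp of region centres, and AP-1 is its own near-palindrome, so overlapping matches counted once. Members, lists and motifs were chosen with earlier results of these data known. Counts cover every receptor gene, and some genes and 1 sequence are not reported here. Partner genes are named where promoter calls differed between stages or E80-specific and E60-specific counts differed by 3 or more. Overlap and motif counts were tested on simulated data. Alternatives were other loci, promoter distances, widths, windows, members and cultures left out. Python 3.11.15, pandas 2.3.3, NumPy 2.4.6, SciPy 1.17.1, pysam 0.24.0 and matplotlib 3.10.9 were used.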

Additional observations from a re-analysis of the deposited data

Results flagged for a closer look

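At receptor loci, 239 regions held only lifted peaks, whose sets the labels do not define and which were not used in any comparison. They were flagged because they are signal outside the stage sets, and no control samples set a level for them. They made up 47.7% of the 501 regions of either kind at receptor loci, beside 33.5% at all autosomal protein-coding loci. They lay at 37 of the 43 loci, beside 8482 of all 19839 autosomal protein-coding loci. Receptor genes were longer than the median gene, and counts scale with length. At 3 of the 37 loci, GABRR1 among them, there was no region with a stage peak. GRIK4 had 23, GRID1 22, GRIN2B 21, GABBR2 17 and GRIA1 16. At GRIN2B they outnumbered the 8 regions with a stage peak.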

How the results depend on the processing

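With 1 culture per stage, no stage difference had a replicate check, and depth per library was not used, so a region without a call may have been open below the threshold. No paired analysis was possible because the peak sets carry no library or replicate number. The E80 share of regions called at E80 or E60 alone of the pair was 38.8% and lay between 38.1% and 44.7% under all alternatives run. Promoter calls kept their order of stages under other distances, starts and members, with 6 to 7 (E50), 31 to 36 (E60), 27 to 31 (E80) and 12 to 14 (E85) genes. The 14 promoters called at E60 and E80 alone were 13 to 16 under alternatives that kept all cultures, and 21 without the E85 culture; these were added after seeing the data. Regions without a lifted peak numbered 3 (E50), 71 (E60), 63 (E80) and 17 (E85), and regions of at most 1 kb at E50 numbered 25. The late-only share of 41.0% was 100% without the E60 culture and 4.52% without the E80 culture, since either leaves 1 side almost empty by construction. Over whole regions the RE1 right part was in 4.96% of receptor regions, the homeobox in 16.0%, the E-box in 34.4% and the GC box in 31.3%; within 100 bp of the centre AP-1 was in 15.6% and the E-box in 12.2%. These follow the length searched.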
